A study of Mus musculus with 2 samples.

Results

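Tetraspanins are small membrane proteins that cross the membrane several times and hold other proteins, above all integrins, immunoglobulin-family receptors and proteases, in shared patches of the plasma membrane or of endosomes. The 10 genes described here encode the family members best known from blood cells: Cd9, Cd37, Cd53, Cd63, Cd81, Cd82, Cd151, Tspan13, Tspan32 and Tspan33. They were chosen by name, with earlier results of these data known, and each was found by its gene identifier among the 43346 mouse genes of the tables. All 10 were measured in total RNA of common myeloid progenitors (CMP), cells that can still give rise to granulocytes, monocytes, erythrocytes and megakaryocytes.

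The study has 1 group of 2 libraries and no control or treated group. Each library was made from a pool of 100 primary CMP of male C57BL/6J mice aged 5 to 6 weeks, from RNA of over 200 nucleotides, and no allele or treatment is named in the labels. The labels call the libraries biological replicates 1 and 2, with separate biosamples and 1 shared donor identifier. Spread between them is therefore the only error available, and it may be partly technical.

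Tetraspanins have no enzyme activity of their own. Their large outer loop binds partner proteins, and a partner often fails to reach the cell surface, or is cleared from it, when its tetraspanin is lost. In blood cells CD37 and CD53 pair with leukocyte integrins and selectins, CD9 and TSPAN32 with the platelet integrin, CD151 with laminin-binding integrins, and the TspanC8 subfamily, to which TSPAN33 belongs, with the protease ADAM10. CD63 is mostly found in late endosomes and secreted vesicles.

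The libraries held 28916263 expected counts in replicate 1 and 26426710 in replicate 2, of which nuclear protein-coding genes took 43.9% and 45.3%. A count of 50 or more in 1 library stood beside a count of 0 in the other for 230 of 10603 protein-coding genes that reached 50 in either. The progenitor markers Kit (98.1 and 93.0 TPM) and Cd34 (74.5 and 55.4 TPM) were high. Ly6a and Il7r, which the CMP gate excludes, had 0 counts in both libraries. Fcgr2b and Fcgr3, the Fc gamma receptor genes listed for that gate, were lower and less even. Fcgr2b had 2.48 and 9.59 TPM, and Fcgr3 had 0.64 and 4.27 TPM. Of the erythroid markers 6 of 8, of the megakaryocyte markers 5 of 8, and of the mast cell, basophil and eosinophil markers 4 of 7 reached 1 TPM in both libraries, against 3 of 8 for monocytes, macrophages and dendritic cells, 2 of 6 for neutrophils, 1 of 6 for stroma and endothelium, 1 of 8 for B cells and 0 of 7 for T and NK cells. Because the RNA came from pooled cells, fewer cells with a transcript and less of it per cell cannot be told apart.

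All 10 genes were detected, that is, at a TPM (length-corrected transcripts per 1000000) of 1 or more in both libraries. The same threshold was passed by 9627 of 21461 nuclear protein-coding genes (44.9%). The median of the 10 was 29.0 TPM in replicate 1 and 20.0 TPM in replicate 2, compared with medians of 13.2 and 13.5 TPM for detected protein-coding genes and 0.320 and 0.560 TPM for all protein-coding genes. Ordered by mean TPM, Tspan32 came first, followed by Cd37, Cd81, Tspan13, Cd63, Cd82, Cd9, Tspan33, Cd53 and Cd151. By counts, without the length correction, Tspan13 took rank 2 and Tspan33 rank 5. Tspan32 was the highest of the family in each library, and its mean level exceeded that of 98.0% of all protein-coding genes. Cd151 was the lowest in each library, above 67.2% of them.

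**Figure D1:**
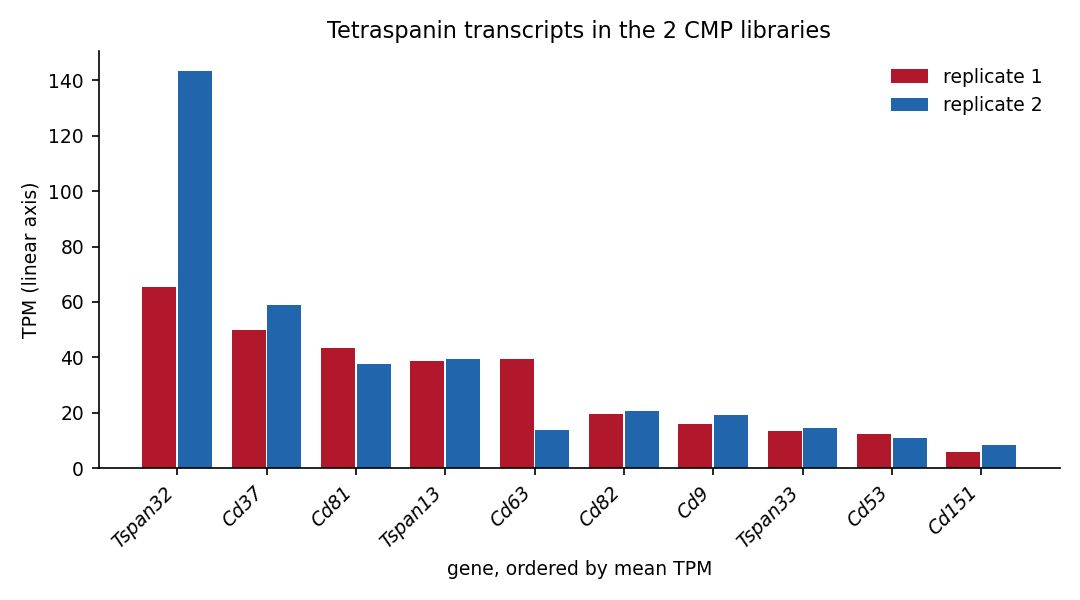
TPM (linear axis) of the 10 blood-cell tetraspanin genes, ordered by mean TPM, with replicate 1 as the left and replicate 2 as the right bar of each pair. Tspan32 stands at 65.4 and 143 TPM, Cd63 at 39.3 and 13.9 TPM, and Cd151 at the low end with 5.90 and 8.30 TPM.

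Among the genes of mainly leukocyte tetraspanins, Tspan32, also known as TSSC6 or PHEMX, is expressed largely in blood cells and in mouse platelets is needed for normal signalling through the integrin alphaIIb beta3. It had 65.4 TPM in replicate 1 and 143 TPM in replicate 2 (mean 104 ± 55.2, SD, n = 2). In TPM, replicate 2 was thus more than 2 times replicate 1. The gene made up 21.5% of the family's summed TPM in replicate 1 and 39.1% in replicate 2. The expected counts, 2028 and 3376, differed by less than 2 times. They stood beside effective lengths, averaged over the gene's transcripts, of 1510 and 1148 bases. Itga2b, the alphaIIb chain of that integrin, also stood higher in replicate 2, with 49.8 and 100.0 TPM, and Itgb3, its beta3 chain, had 3.00 and 3.34 TPM. Together the 8 megakaryocyte markers, Itga2b among them, summed to 140 and 237 TPM, with Ppbp and Gp6 at 0 in both libraries. The summed monocyte, macrophage and dendritic cell markers were higher in replicate 2 as well, at 19.6 and 44.6 TPM. Within that list H2-Aa had 1 and 297 counts and Cd74 had 1 and 161 counts. Csf1r (840 and 378 counts) and Adgre1 (1 and 0 counts) went the other way, and H2-Ab1 had 6.65 and 7.95 TPM. Fcgr1 and Cd14 had 0 counts in both libraries. The part of either kind of cell in the Tspan32 difference was not tested.

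Cd37 encodes a leukocyte tetraspanin that is abundant on B cells and needed in mice for lasting antibody responses. It had 49.9 TPM in replicate 1 and 59.0 TPM in replicate 2 (54.4 ± 6.41, SD, n = 2), a level above that of 95.1% of protein-coding genes. The B-cell markers summed to 13.7 and 12.3 TPM, carried by Cd79b at 7.60 and 12.2 TPM and Vpreb1 at 5.21 and 0.0900 TPM, with Cd79a, Ms4a1, Pax5 and Ebf1 at 0 counts in both libraries. Cd53, the pan-leukocyte tetraspanin that in mice keeps L-selectin on the lymphocyte surface, was much lower than Cd37. It had 12.4 TPM in replicate 1 and 10.8 TPM in replicate 2 (11.6 ± 1.15, SD, n = 2), from 408 and 350 expected counts. Cd37 exceeded Cd53 by 1.92 on the log2(TPM + 1) scale in replicate 1 and by 2.34 in replicate 2 (mean 2.13, SE 0.228; limma adjusted p = 0.000115).

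Among the tetraspanins known mainly as organisers of receptors and integrins, Cd81 and Tspan13 were at nearly the same level. Cd81, a broadly expressed tetraspanin that in human liver cells is an entry receptor of hepatitis C virus, had 43.6 and 37.8 TPM (40.7 ± 4.09, SD, n = 2). Tspan13, also known as NET-6, had 38.6 and 39.5 TPM (39.0 ± 0.629, SD, n = 2), a coefficient of variation of 1.61%, the smallest of the 10 genes.

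Cd82, known as KAI1 from human tumours in which its loss accompanies metastasis, had 19.5 and 20.8 TPM (20.2 ± 0.940, SD, n = 2). Cd9, which is abundant on platelets and megakaryocytes and is required on the mouse egg for fusion with sperm, had 16.2 and 19.3 TPM (17.7 ± 2.20, SD, n = 2). Cd151, which binds the laminin receptors integrin alpha3 beta1 and alpha6 beta1, had 5.90 and 8.30 TPM (7.10 ± 1.70, SD, n = 2). Of the integrin chains that CD151 is best known to bind, Itga6 had 20.1 and 27.9 TPM, while Itga3 had 6 counts in replicate 1 and 0 in replicate 2.

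Cd63, the tetraspanin of late endosomes, lysosomes and exosomes, was the least even of the family. It had 39.3 TPM in replicate 1 and 13.9 TPM in replicate 2 (26.6 ± 18.0, SD, n = 2), from 607 and 213 expected counts, and took rank 4 of the family in replicate 1 but rank 8 in replicate 2. Its coefficient of variation was 67.6%. The mast cell, basophil and eosinophil markers, cells in which CD63 marks secretory granules, summed to 58.4 TPM in replicate 1 and 34.0 TPM in replicate 2, with Prg2 and Epx at 0 in both. Whether such cells contribute to the Cd63 difference was not tested. Tspan33, the TspanC8 member that carries ADAM10 to the cell surface and that in mice is needed for normal red cell formation, had 13.4 and 14.4 TPM (13.9 ± 0.728, SD, n = 2).

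The order of the genes by level per length was then tested pair by pair. For each of the 45 pairs the log2 ratio of TPM + 1 was taken within each library, which removes the scale of the library, and set against its spread over both libraries in a limma fit across all genes with a mean of 1 TPM or more. In this fit 26 of 45 pairs (57.8%) differed at an adjusted p of 0.05, compared with 62.5% of all ratios of a gene to a tetraspanin, so the share of differing pairs is close to that of genes in general. The fit takes its variance from the ratio to 1 of the 2 genes, so it was repeated with the other gene of each pair below the line, which gave 28 pairs (63.2% of all ratios), and with the spread of both genes taken from 1 fit, which gave 24 (58.5% of all ratios). These repeats were chosen after the data had been seen. Together 21 pairs passed in all 3 fits and 14 in none. The share of all ratios that passed in all 3 fits was not computed, so these counts cannot be set against genes in general.

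None of the 9 pairs of neighbours in the order passed in the fit as first set. Neighbours were set by the same levels as the ratios, so their ratios are small by construction. Tspan32 over Cd37 was 0.38 in replicate 1 and 1.27 in replicate 2 on the log2 scale (limma adjusted p = 0.401). The repeats gave a limma adjusted p = 0.0124 with Cd37 below the line and a limma adjusted p = 0.0644 with the spread of both genes. Cd37 over Cd81 was 0.19 and 0.63 (limma adjusted p = 0.128), and Cd81 over Tspan13 was 0.17 and -0.06 (limma adjusted p = 0.802). The order within the top 4 genes is therefore not resolved beyond the spread between the libraries in the fit as first set, although Tspan32 passed over Cd81 (limma adjusted p = 0.205, against 0.00550 and 0.0180 in the repeats) and over Tspan13 (limma adjusted p = 0.185, against 0.00793 and 0.0149) in both repeats.

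The pairs that passed in all 3 fits were, with 1 exception, those with Cd63 between their genes in the order. They were the 20 pairs of 1 of the 4 genes with the highest mean (Tspan32, Cd37, Cd81 and Tspan13) with 1 of the 5 with the lowest (Cd82, Cd9, Tspan33, Cd53 and Cd151), and Cd82 over Cd151. This grouping, Cd63 left out, was read from the same levels as the ratios and is a description, not a tested division. The closest of the 20 ratios was Tspan13 over Cd82, at 0.95 in replicate 1 and 0.89 in replicate 2 (mean log2 ratio 0.92, SE 0.216; limma adjusted p = 0.00961). The widest was Tspan32 over Cd151, at 3.27 and 3.96 (mean 3.61, SE 0.894; limma adjusted p = 0.000140). Cd82 over Cd151 was 1.57 and 1.23 (mean 1.40, SE 0.388; limma adjusted p = 0.00134). The grouping depends on which transcripts are counted. By transcripts that GENCODE M21 types as coding, Cd37 had 39.6 and 19.7 TPM in replicates 1 and 2, in place of 49.9 and 59.0. On that count Cd37 stood below Cd82 (20.8 TPM) in replicate 2. Only 2 of the 9 Cd37 transcripts have an M21 entry, so the rest were left out with their type unknown.

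Cd63 could not be placed. Of its 9 pairs 0 passed in all 3 fits and 5 passed in none, and 4 of them changed sign between the libraries. Cd63 exceeded Cd82 by 0.98 in replicate 1 and was below it by 0.55 in replicate 2, given as log2 ratios of 0.98 and -0.55 (limma adjusted p = 0.655).

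**Figure D2:**
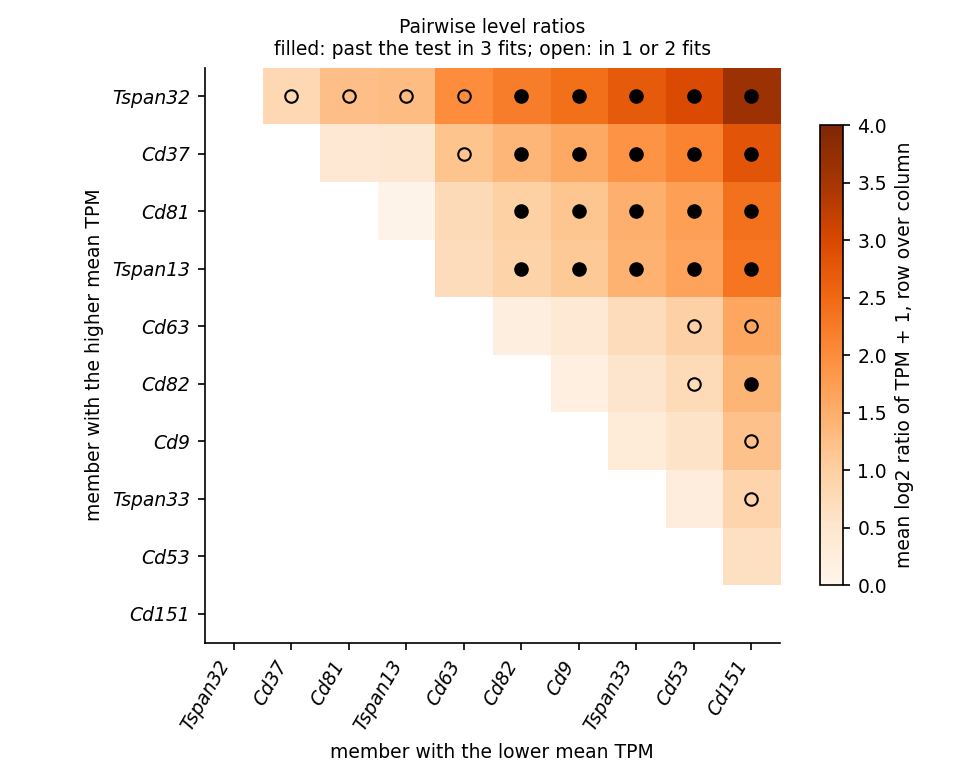
Mean log2 ratio of TPM + 1 over both libraries for each pair of genes, with the gene of higher mean TPM in rows and the gene of lower mean TPM in columns. Filled circles mark the 21 pairs past an adjusted p of 0.05 in all 3 limma fits and open circles those past it in 1 or 2 of them; the row and column of Cd63 hold no filled circle.

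Because the libraries are the only 2 samples, the counts of each gene were also compared between them by counting error alone, with a two-sided exact binomial test on library sizes scaled by TMM. This test compares 2 libraries, not 2 conditions. It called 8 of the 10 genes, against 78.2% of 13616 genes in the tables, so that a call by this test is what most genes show. Cd37, Cd53, Cd63 and Cd81 were called as higher in replicate 1, as were 37.6% of all genes tested. Cd9, Cd151, Tspan32 and Tspan33 were called as lower in replicate 1. Cd82, with 575 and 576 counts, and Tspan13, with 1379 and 1333, were not called (adjusted exact binomial p = 0.793 for Cd82 and p = 0.196 for Tspan13).

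The sizes separate the family more than the calls do. The log2 ratio of replicate 1 over replicate 2 was 1.54 for Cd63, larger in size than that of 97.7% of 8526 genes with a mean of 200 or more counts, whose median size was 0.32. It was -0.71 for Tspan32, larger in size than 81.1% of those genes, and -0.51 for Cd151, larger than 68.5%. For the other 7 genes the size lay between 0.03 and 0.32, at or below that median. Where the libraries were scaled by their total counts instead, under which the median log2 ratio of all genes is -0.23 in place of -0.03, Cd37, Cd53 and Cd81 were no longer called, and Cd82 and Tspan13 were called as lower in replicate 1.

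**Figure D3:**
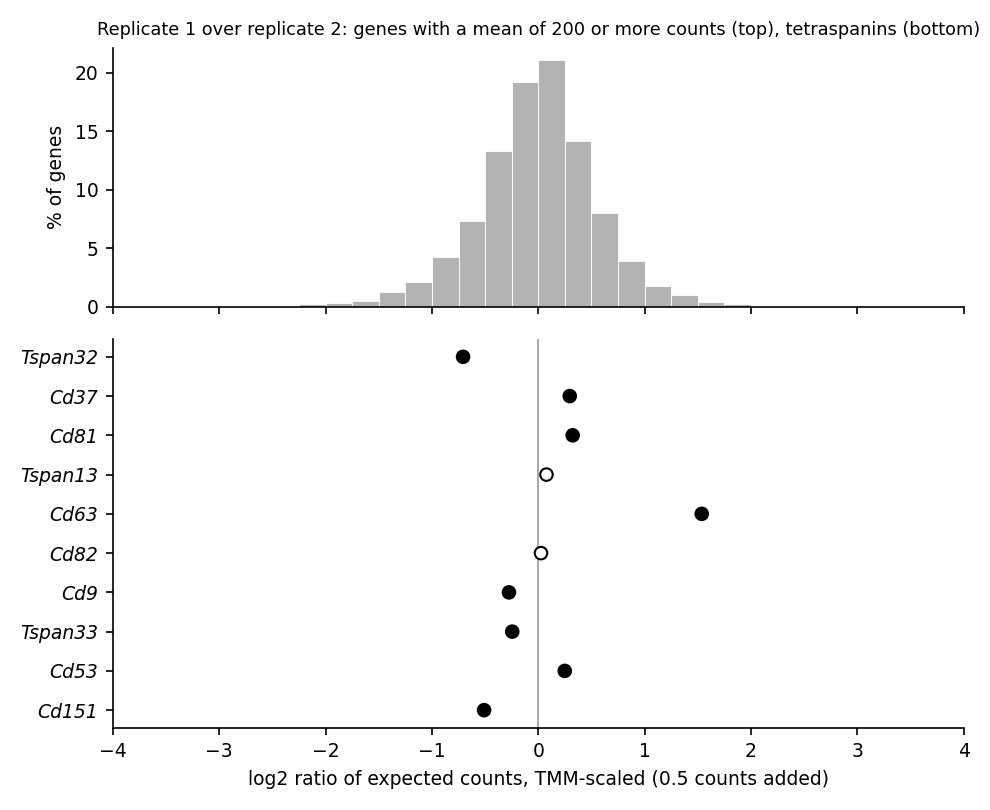
Log2 ratio of TMM-scaled expected counts, replicate 1 over replicate 2 (0.5 counts added). The upper panel gives the percentage of 8526 genes with a mean of 200 or more counts in each bin of 0.25 (values beyond 4 in size in the outer bins), and the lower panel the 10 tetraspanins, filled where the adjusted exact binomial p is 0.05 or less; Cd63 lies at 1.54 in the right tail and Tspan32 at -0.71.

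The transcript tables showed which forms of each gene were counted. In 9 of the 10 genes more than 1 transcript is annotated, and Cd53 has 1. The share of the leading transcript, the one with the highest mean TPM, differed between the libraries in 8 of these 9 genes by a two-sided Fisher exact test on expected counts, compared with 77.5% of 7354 genes tested (4 of 7 against 72.6% where protein-coding transcripts alone were counted), so this too is near what genes in general show. Like the binomial test, it compares 1 library with 1 library and covers counting error only, and estimated reads from 100 cells are not independent molecules, so its p-values are too small as a measure of biological difference. The transcript that led was itself a different one in replicate 1 and replicate 2 in 4 of the 9 genes (Tspan32, Cd37, Tspan33 and Cd151), compared with 40.3% of all genes tested. Such shares are estimates that divide reads among overlapping forms, and libraries from 100 cells can hold few molecules of any of them.

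**Figure D4:**
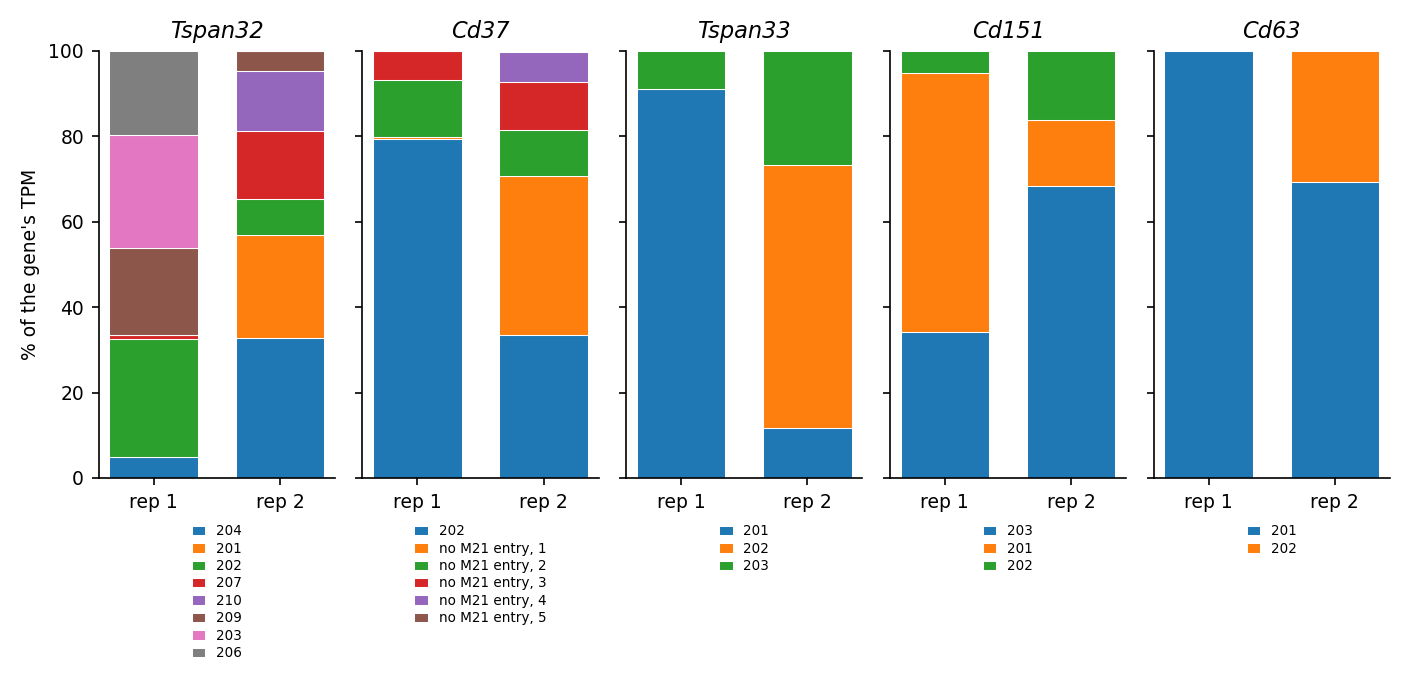
Share of the gene's TPM (percent, linear axis) taken by each annotated transcript of Tspan32, Cd37, Tspan33, Cd151 and Cd63, replicate 1 left and replicate 2 right. Colours are set within each gene, and "no M21 entry" marks transcripts of the authors' annotation without an identifier in the later release used for names; transcript 201 of Tspan33 takes 90.9% in replicate 1 and 11.8% in replicate 2.

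Tspan32 lies on the plus strand of chromosome 7 (chr7:143005046-143019644, GRCm38), 33094 bases before Cd81 on the same strand, with 1 annotated gene, R74862, across the interval. Its 10 annotated transcripts start in 2 neighbouring places, with 1 further fragment near the 3′ end. Transcripts that begin upstream, at 143005046 to 143005060, had 1.07% of the gene's TPM in replicate 1 and 40.0% in replicate 2. Those that begin downstream, at 143005638 to 143005928, had 98.9% and 45.8%. As levels, the downstream forms were nearly equal, with 64.7 TPM in replicate 1 and 65.6 TPM in replicate 2. The upstream forms and the 3′ fragment made up the rest of replicate 2, the fragment with 0 TPM in replicate 1 and 20.4 TPM in replicate 2. Grouping by start was chosen after the data had been seen and carries no test.

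The 250 bases before the upstream start are shown because the libraries differ in the forms that begin there. They lie at chr7:143004796-143005045 (GRCm38.p6, plus strand, RefSeq), and capitals mark the 2 motif matches found by script, TTATCT, the reverse complement of the GATA motif AGATAA, and TTCCGG, the reverse complement of the ETS motif CCGGAA.
Tspan32 upstream start: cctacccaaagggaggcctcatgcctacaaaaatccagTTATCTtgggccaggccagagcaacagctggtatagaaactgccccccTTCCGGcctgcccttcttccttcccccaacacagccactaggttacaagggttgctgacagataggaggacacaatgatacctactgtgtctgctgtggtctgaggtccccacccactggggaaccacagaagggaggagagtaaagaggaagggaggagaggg
The search covered 4 motifs on both strands, none of whose matches overlapped in the sequences printed, in windows from 250 bases before to 50 bases after each start. AGATAA occurred in 11.2% of 32851 mouse promoters and in 1 of the family's 14 (Tspan32), CCGGAA in 14.9% and in 3 (Cd9, Cd37 and Tspan32), the GC box GGGCGG in 35.7% and in 8, and TATAAA in 13.6% and in 1 (Cd81). All 10 genes had a window in this search, but some starts lay outside the windows. The only Tspan32 window is that of the upstream start, 592 bases from the nearest start of the downstream forms. For Cd63 the start used lies 354 bases from that of Cd63-201 and 525 bases from that of Cd63-202. A match is a description of the letters, not a bound site.

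Coding forms of Tspan32 also differed in internal exons, of which the 2 that can be left out without a shift of the reading frame are printed. The 102-base exon at chr7:143014959-143015060 was part of 75.2% of the TPM of transcripts that span it in replicate 1 and of 53.1% in replicate 2. The 84-base exon at chr7:143017201-143017284 was part of 27.9% and 46.4%. A 95-base exon at chr7:143017579-143017673 was part of 80.1% and 100%. The first 2 lengths are whole numbers of codons and that of the 95-base exon is not. The sequences are those of GENCODE M21 transcript Tspan32-202 (GRCm38, plus strand).
Tspan32 102-base exon: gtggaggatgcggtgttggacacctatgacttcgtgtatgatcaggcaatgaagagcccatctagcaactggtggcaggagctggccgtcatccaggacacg
Tspan32 84-base exon: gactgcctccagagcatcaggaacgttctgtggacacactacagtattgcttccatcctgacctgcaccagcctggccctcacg
Transcript Tspan32-202, which holds both exons and a coding sequence of 687 bases, had 18.1 TPM in replicate 1 and 11.9 TPM in replicate 2. Tspan32-201, which also holds both but begins upstream and has a coding sequence of 768 bases, had 0 and 34.7 TPM. Tspan32-204, which lacks both and has a coding sequence of 501 bases, had 3.19 and 47.0 TPM, a share of 4.88% and 32.8% (adjusted Fisher exact p = 2.17e-199). Tspan32-203, which lacks the 84-base exon alone, had 17.4 and 0 TPM. Tspan32-206, which lacks all 3 exons and has a coding sequence of 435 bases, had 12.9 and 0 TPM. A transcript annotated as subject to nonsense-mediated decay, Tspan32-209, had 13.2 and 6.69 TPM, and transcripts with a retained intron had 1.07% of the gene's TPM in replicate 1 and 30.1% in replicate 2. No single coding form led in both libraries, and 4 of the 10 transcripts had counts in both.

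Tspan33 showed the largest difference in a leading transcript, although the gene's level was nearly the same in both libraries. Its transcript Tspan33-201 had 12.2 TPM in replicate 1 and 1.70 TPM in replicate 2, a share of 90.9% and 11.8% (adjusted Fisher exact p = 1.70e-165). Tspan33-202 had 0 and 8.87 TPM, and a form with a retained intron, Tspan33-203, had 1.21 and 3.84 TPM. Within the coding sequence, 849 and 846 bases long, the first 2 forms differ at the start of exon 3, on the plus strand of chromosome 6. Exon 2 lies at chr6:29709941-29709998 in both, and exon 3 begins at 29710587 in Tspan33-201 and at 29710590 in Tspan33-202. The 24 bases on either side of that junction are shown, with the 3 bases that Tspan33-201 alone has in capitals (GENCODE M21, GRCm38).
Tspan33-201: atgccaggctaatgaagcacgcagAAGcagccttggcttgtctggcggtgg
Tspan33-202: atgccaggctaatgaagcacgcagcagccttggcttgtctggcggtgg
Besides this junction the transcripts, 1994 and 1977 bases long, differ only in their ends, so the division of reads between them rests on few positions. The 2 coding forms summed to 90.9% of the gene's TPM in replicate 1 and 73.4% in replicate 2.

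Cd151 (chr7:141467392-141471473, plus strand) has 3 transcripts with the same coding length of 759 bases, which begin at 2 places. The upstream start was that of 39.2% of the gene's TPM in replicate 1 and 84.6% in replicate 2, and the downstream start that of 60.8% and 15.4%. In counts the downstream form Cd151-201 had 111 and 39.4, and the upstream forms had 78.6 and 237 together. The leading transcript, Cd151-203, had a share of 34.1% and 68.3% (adjusted Fisher exact p = 1.27e-11). The start sites and coding lengths are those of GENCODE M21, in which the 3 transcripts are shorter than in the authors' annotation. All 3 share their coding start in a later exon, so the difference lies in untranslated first exons. The 250 bases before each RefSeq start are shown for comparison (GRCm38.p6, plus strand), with matches to the GC box in capitals. The first stretch lies at chr7:141467112-141467361 and the other at chr7:141468539-141468788. The RefSeq starts lie 31 bases before the nearest M21 start of the upstream forms and 33 bases before that of Cd151-201.
Cd151 upstream start: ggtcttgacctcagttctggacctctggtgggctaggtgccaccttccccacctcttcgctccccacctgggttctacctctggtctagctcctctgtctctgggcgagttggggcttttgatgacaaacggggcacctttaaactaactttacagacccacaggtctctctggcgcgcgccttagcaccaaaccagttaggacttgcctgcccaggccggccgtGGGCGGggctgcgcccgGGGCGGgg
Cd151 downstream start: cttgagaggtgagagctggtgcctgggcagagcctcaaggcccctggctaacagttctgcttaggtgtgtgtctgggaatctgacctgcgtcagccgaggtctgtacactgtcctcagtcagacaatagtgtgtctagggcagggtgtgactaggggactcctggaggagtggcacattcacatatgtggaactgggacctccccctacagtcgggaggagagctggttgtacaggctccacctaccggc
The upstream window holds 2 matches to GGGCGG and the downstream window 0 to any of the 4 motifs, with a GC content over the full windows of 64.3% and 56.7%, against a median of 52.7% over all promoters.

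Of Cd37 (chr7:45233632-45239115, minus strand), the annotated coding transcript Cd37-202 had 39.6 TPM in replicate 1 and 19.7 TPM in replicate 2, a share of 79.4% and 33.5% (adjusted Fisher exact p = 1.10e-42). In replicate 2 the remaining 66.5%, against 20.6% in replicate 1, lay in forms that have no entry in the later annotation release, the largest of which, 573 bases long, had 0.210 TPM in replicate 1 and 21.9 TPM in replicate 2. The type of those forms is unknown. Counted by Cd37-202 alone, Cd37 was higher in replicate 1, while as a gene its TPM was higher in replicate 2. Its expected counts of 1268 and 1053 stood beside effective lengths, averaged over its transcripts, of 1237 and 871 bases. Cd63 (chr10:128900989-128912822, plus strand) was counted as 1 form, Cd63-201, in replicate 1, and as 69.3% of it and 30.7% of Cd63-202 in replicate 2, both with a coding length of 714 bases.

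The other genes held 1 main coding form in both libraries. Cd81-201 took 100% of the TPM of Cd81 (chr7:143052739-143067934, plus strand) in replicate 1 and 89.0% in replicate 2, the rest being a form with a retained intron. Tspan13-201 took 95.8% and 89.1% of Tspan13 (chr12:36014557-36042500, minus strand), and Cd9-201 took 83.0% and 100% of Cd9 (chr6:125460266-125494791, minus strand). Cd82-205 took 85.1% and 82.7% of Cd82 (chr2:93419111-93463140, minus strand), which was the gene whose leading share was not called (adjusted Fisher exact p = 0.230). Of the 8 annotated genes that overlap a member, 7 had 0 counts in both libraries, and the exception, Gm28809, an antisense gene within Cd9, had 0 and 5.

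Most of the rest of the tetraspanin family was low. Of 22 further tetraspanin genes, 21 were found in the tables, 7 were detected in both libraries and 10, among them Tspan1 and Tspan7, had 0 counts in both. Their median was 0 TPM in replicate 1 and 0.350 TPM in replicate 2, and all 21 together summed to 72.2 and 89.0 TPM, compared with 304 and 367 TPM for the 10 blood-cell members. The highest was Tspan4, known from migrasomes, the vesicles that migrating cells leave behind, with 22.6 and 25.6 TPM, followed by Tspan31 with 18.0 and 24.8, Tspan14 with 14.9 and 8.01 and Tspan3 with 7.84 and 10.8 TPM. By mean TPM, Tspan4 and Tspan31 were thus at a level between Cd63 and Cd82, and Tspan14 and Tspan3 between Cd53 and Cd151.

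Partner genes were present to different degrees. Of the 8 integrin chains that bind tetraspanins, 7 were detected, led by Itga4, the alpha chain of VLA-4, with 74.0 and 92.0 TPM, then Itga2b, then Itgb1, the common beta1 chain, with 23.8 and 24.8 TPM, and Itga6. Of 10 other membrane partners 7 were detected, with Cd47 at 116 and 117 TPM, Ifitm1, a known companion of CD81, at 80.2 and 126, Kit at 98.1 and 93.0, and the hyaluronan receptor Cd44 at 57.0 and 34.2 TPM, while Ptgfrn, which binds CD9 and CD81, and Cr2 had 0 counts in both libraries. For Tspan33, the protease partner Adam10 had 34.4 and 36.2 TPM. Among the 6 TspanC8 tetraspanins that carry ADAM10, Tspan33 had the highest mean, but in replicate 1 Tspan14 was higher, with 14.9 TPM against 13.4, and Tspan5 followed with a mean of 3.85 TPM, while Tspan10 had 0 counts in both. For Cd63, all 13 endosome and vesicle genes were detected, led by Sdcbp, which encodes the CD63-binding adaptor syntenin (64.7 and 47.8 TPM), the lysosomal protein gene Lamp1 (59.9 and 39.6), and the ESCRT genes Tsg101 (44.6 and 46.1) and Chmp4b (35.9 and 34.6 TPM).

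**Figure D5:**
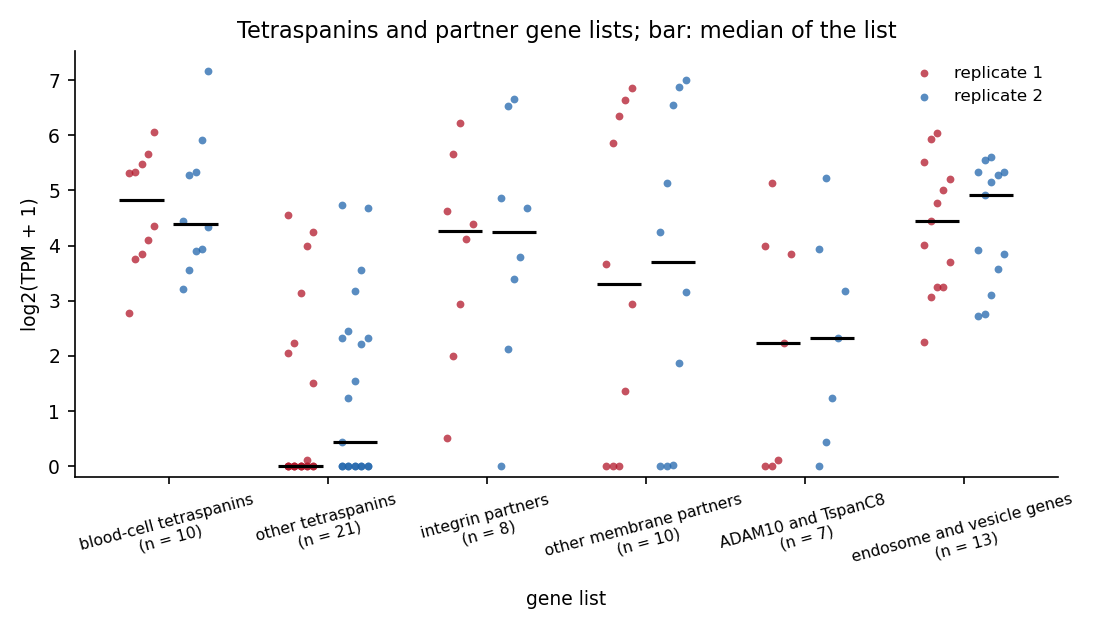
Log2(TPM + 1) of each gene in the 10 blood-cell tetraspanins and in 5 lists of related genes, with replicate 1 on the left and replicate 2 on the right of each list and a bar at the median of the list. All 10 blood-cell tetraspanins and all 13 endosome and vesicle genes lie above 1 TPM in both libraries, while 10 of the 21 other tetraspanins lie at 0 in both.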

How the data were processed

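Total RNA of 2 CMP libraries was sequenced. Per the deposited notes, the authors mapped reads to mm10 with GENCODE M4; which aligner and quantifier they ran is not given in the sources used here. Expected counts, as deposited, are estimated reads per gene or transcript and were rounded for tests. The deposited TPM values are scaled over all table entries, tRNA and spike-ins included. The deposited FPKM values are a constant multiple of TPM in a library and were not used further. The deposited percent values give each transcript's share of its gene's TPM. A count of 0 allows up to 0.104 and 0.114 counts per 1000000 in replicates 1 and 2 (3 counts of the total; counting error only).

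Gene and transcript names came from GENCODE M21 by identifier without version, for 42462 of 43346 mouse genes. The pair test was limma 3.58.1 with a variance trend on log2(TPM + 1), library scaling was TMM from edgeR 4.0.16, and exact binomial (10 or more counts in a library) and Fisher tests (50 or more counts in each) used R 4.3.3 and scipy 1.17.1. All p-values were adjusted by Benjamini-Hochberg over all genes of a fit, and scripts were tested on simulated data. An exact sign-flip test over 2 libraries cannot go below p = 0.5. DESeq2 1.42.0 size factors were an alternative.

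The members and gene lists were chosen with earlier results of these data known. All members are named; of each other list, the 4 genes with the highest mean TPM and up to 2 with 0 counts. Itga3, Itgb3 and the cell-type markers were named in addition, after their values were seen.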

Additional observations from a re-analysis of the deposited data

How the results depend on the processing

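All 10 genes stayed detected at TPM thresholds of 0.5 and 5, after rescaling to nuclear protein-coding genes, with posterior mean TPM and in either library alone (10 to 10 genes). The count of differing pairs, 26 as first set, ranged from 24 (no variance trend) to 31 (posterior mean TPM) over the 7 alternatives. Of these alternatives 2 were chosen after seeing the data. Among all ratios of a gene to a tetraspanin, 65595 of 106515 passed with no variance trend and 103371 of 148509 with posterior mean TPM. The number of pairs thus moved with that of genes in general. For Cd63 over Tspan33 the mean log2 ratio of 0.72 became -0.69 without the length correction (limma adjusted p = 0.0494). The 8 genes called between libraries became 0 with edgeR's exact test at a common dispersion of 0.575, which also called 0 of all 13616 genes (1541 had an unadjusted p under 0.05), with the dispersion taken from these 2 libraries. Under total-count scaling 7 were called, beside 10790 of all 13616 genes, and the log2 ratios of Tspan13 (-0.13) and Cd82 (-0.18) turned negative. The 8 leading transcript shares called became 4 of 7 where protein-coding transcripts alone were counted (72.6% of all genes tested in this way), since fewer transcripts and genes remain. Without replicate 1 or without replicate 2 the pair and library tests have no residual spread and were not run. No paired analysis was possible because both libraries belong to 1 group. Counted by M21 protein-coding transcripts alone, the mean level of Cd37 was 29.7 TPM in place of 54.4. The Cd37 transcripts without an M21 entry, of unknown type, were left out of that value. Rescaling to nuclear protein-coding genes raised each TPM and left the order of genes within a library as it was. Without the length correction Tspan13 moved to rank 2, Cd37 to 3, Cd81 to 4, Tspan33 to 5, Cd63 to 7 and Cd9 to 8. The fewest counts were those of Cd151 in replicate 1 (190) and of Cd63 in replicate 2 (213).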
